A study of Mus musculus with 9 samples.

Results

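The 3 arrays of SMA mice were compared with the 3 arrays of wild-type mice, 6 of the 9 arrays in a study of laser-captured mouse motor neurons. The arrays were chosen by their titles alone, and no measured value entered that choice. Wild-type mice and transgenic SMA mice both had surgery at postnatal day 1 in which vehicle was given, and both were killed at 13 days, so the groups shared the operation and the age. The other 3 arrays came from SMA mice transplanted on the same day with what the labels call NSC. These 3 entered the choice of bright probe sets, the estimate of spread, and the figures and statements that cover all arrays of the series. Motor neurons were cut from 16 µm sections of lumbar cord perfused with paraformaldehyde, with about 100 cells per cap. Each array held cells of 1 animal, so n is 3 animals a group. The labels used here name neither the transgene nor the strain of the SMA mice.

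Spinal muscular atrophy (SMA) follows from too little SMN, a protein that loads Sm proteins onto the small nuclear RNAs of the spliceosome. Every cell needs SMN, yet the lower motor neurons of the cord are lost first. Injured motor neurons are known to turn on small heat shock proteins and growth arrest genes. Young spinal cord is also a tissue of heavy myelination, in which sterol synthesis is active in glia and neurons alike.

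Values were MAS5 signals, a linear brightness in arbitrary units that Affymetrix software derives from the probes of a gene, called a probe set. Each was turned into log2(signal + 16), and a difference is the SMA mean minus the wild-type mean on that scale, with its standard error (SE). Controls were left out, and limma tested the probe sets whose mean over the 9 arrays lay in the upper 50%, which were 11313 probe sets of 7254 named genes. A probe set counts as called at a Benjamini-Hochberg adjusted p under 0.05, and "without overlap" means that all 3 SMA arrays read above, or all 3 below, all 3 wild-type arrays.

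The 6 arrays had median signals of 31.4 to 34.85. Correlations of log2 signals were 0.945 to 0.975 within wild type, 0.904 to 0.937 within SMA and 0.91 to 0.962 between both groups. Wild type 3 and SMA 3 had the highest 18S ribosomal RNA signals of the 6 (2940 and 2765, where the rest read 839.2 to 1121). Their actin probe sets also gave the highest ratios of 3' over 5' signal, 3.656 and 4.318, whereas for Gapdh that ratio was highest on SMA 1 (4.257, against 3.915 on SMA 3 and 3.63 on wild type 3). The Smn1 probe set checked no label, since it read 5.1, 3.7 and 1.8 in wild type and 4, 1.3 and 3.1 in SMA and was too dim to test.

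Markers that define motor neurons were dim on these arrays. The vesicular acetylcholine transporter Slc18a3 read 11.7 to 15.4 in wild type and 2.1 to 18 in SMA, the choline transporter Slc5a7 3 to 9.9 and 8.1 to 11.8, and the factor Isl1 5.3 to 16.7 and 3.8 to 11.3. None of these was bright enough to test, and no probe set named Chat alone. Of 20 motor neuron markers with a probe set, 8 were tested, and the summed signal of the 20 was 946.4 to 1577 in wild type and 865.5 to 1622 in SMA. Markers of astrocytes, oligodendrocytes and microglia were read on every array, and their sums are given beside the results they accompany. In such bulk captures, fewer cells of a type and less RNA per cell cannot be told apart.

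SMA 1 and SMA 2 stood apart from the other 4 arrays by transcripts of skeletal muscle and by sex-linked transcripts. Skeletal actin Acta1 read 3.4, 15.1 and 27.1 in wild type, 1289 on SMA 1, 1414 on SMA 2 and 1.5 on SMA 3. The fast myosin light chain Mylpf read 3, 20.4 and 16.8 in wild type and 257.1, 374.5 and 23.6 in SMA. The list of 42 muscle markers with a probe set summed to 4395 and 4995 on SMA 1 and SMA 2, against 659 to 1271 in wild type and 1037 on SMA 3, and 24 of the 42 read above every other array of the series on both. Xist, the RNA that coats the inactive X chromosome of females, read 23.5 to 32.9 in wild type and 600.7, 879.5 and 47.6 in SMA. The Y-linked Eif2s3y read 49 to 75.1 in wild type and 0.5, 0.1 and 108.9 in SMA. Sex is not given in the labels, and its part in the results below was not tested. Called genes and gene lists are given with and without SMA 1 and SMA 2. The fit without them sets SMA 3 alone against wild type and assumes that SMA arrays vary like the others.

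**Figure D1:**
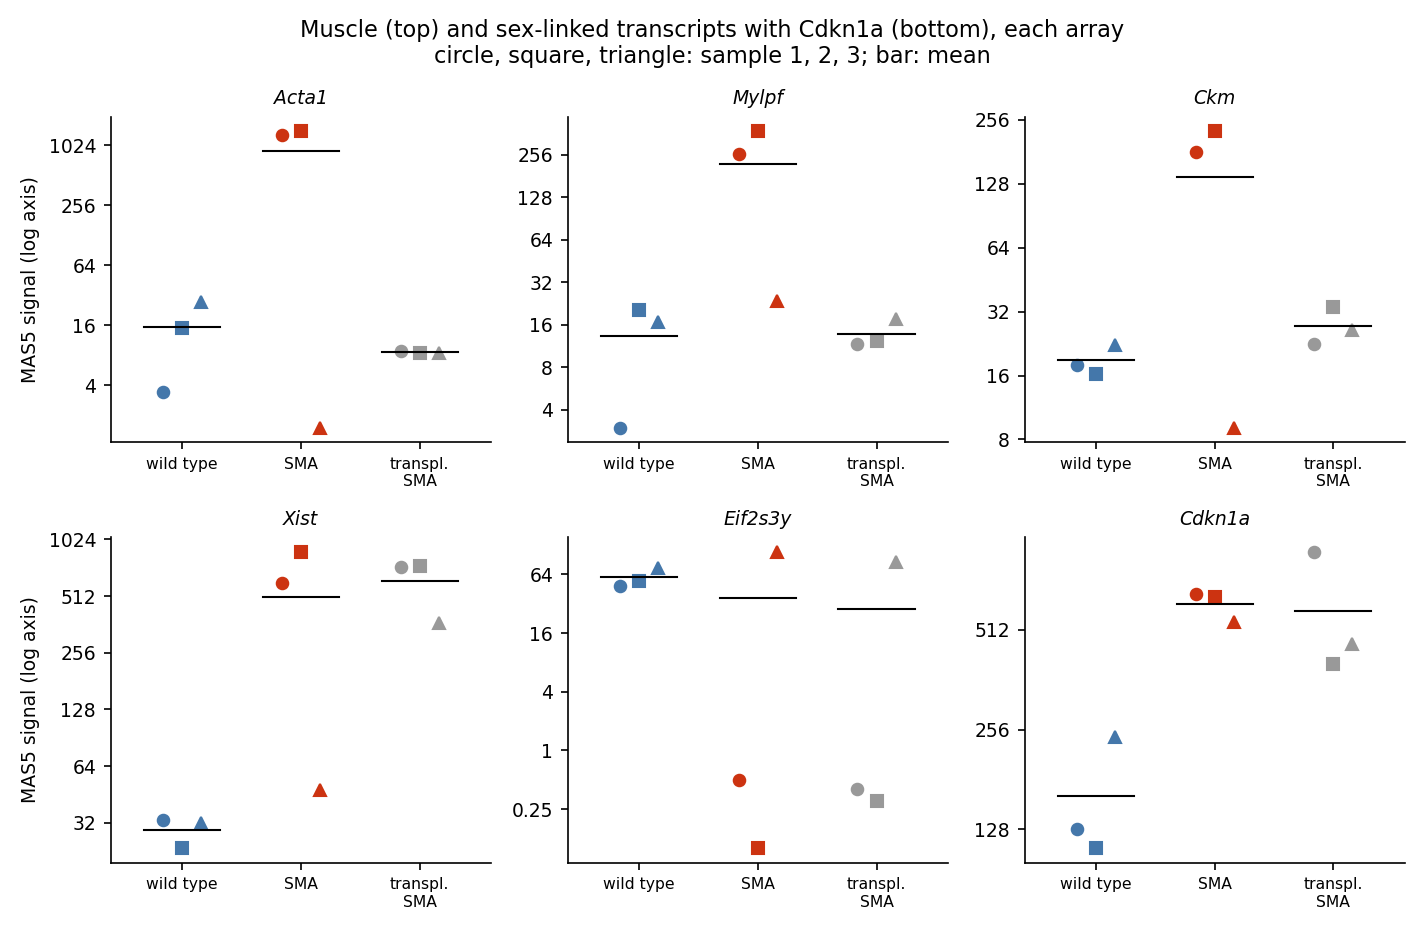
MAS5 signal (log axis, arbitrary units) of 3 muscle transcripts, 2 sex-linked transcripts and the brighter Cdkn1a probe set on each array of the 3 groups, with bars at the group means. SMA 1 and SMA 2 read 1289 and 1414 for Acta1 and 600.7 and 879.5 for Xist, while SMA 3 read 1.5 and 47.6, where wild type read 3.4 to 27.1 and 23.5 to 32.9; for Cdkn1a all 3 SMA arrays read 541.3 or more and wild type at most 243.2.

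Against wild type, 5 probe sets of 4 genes passed, which is 0.0442% of those tested, and all 5 were higher in SMA. The genes were the small heat shock protein Hspb1, the metallothionein Mt2, the cell cycle inhibitor Cdkn1a and the sulfotransferase Sult1a1. No lower probe set passed. At an unadjusted limma p under 0.05, 2.71% of tested probe sets were higher in SMA (307) and 3.32% were lower (376). With array medians centred these counts were 203 and 554, and the median difference over all tested probe sets moved from 0.006 to -0.05. Arrays did not overlap for 5.31% in the higher and 6.06% in the lower direction. These percentages are the background against which every gene group below is read.

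Hspb1 is a chaperone that keeps injured proteins from clumping and that axotomised motor neurons make in quantity. Its dimmer probe set read 21.9, 13.7 and 14.2 in wild type and 177.5, 168.2 and 172 in SMA. The brighter one read 65.1, 59.4 and 88.6 in wild type and 368.5, 288.5 and 249.2 in SMA. At both, every SMA array lay far above every wild-type array, and at the dimmer one the SMA arrays read nearly alike. Hspb1 rose by 2.54 (SE 0.25, limma adjusted p = 0.00345) and 1.87 (SE 0.22, adjusted p = 0.0135). The dimmer set is of a type whose probes can take up related sequences, and the brighter set, which is not, gave the same direction.

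The Hspb1 promoter is shown because heat shock factors act through a short paired element, and the search found it there. It spans chr5:135887669-135887968 on the plus strand of GRCm38.p6 in RefSeq, from 250 bases before the start of the gene to 50 after it. Capitals mark GAANNTTC on either strand.
Hspb1: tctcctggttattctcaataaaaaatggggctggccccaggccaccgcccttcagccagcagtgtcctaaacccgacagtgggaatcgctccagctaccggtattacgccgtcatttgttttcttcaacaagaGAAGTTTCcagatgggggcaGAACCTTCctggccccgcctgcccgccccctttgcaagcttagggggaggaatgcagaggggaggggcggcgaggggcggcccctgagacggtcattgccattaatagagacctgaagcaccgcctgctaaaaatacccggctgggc
The window holds 2 matches, which do not overlap. Of the 13 tested heat shock genes found in the promoter table, 8 (61.5%) had a match, against 6.97% of 5928 tested genes and 9.04% of all genes in the table.

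Mt2 and Mt1 encode metallothioneins, small proteins that bind zinc and copper and that answer to metals, oxidants and glucocorticoids. Mt2 read 864.4, 907 and 789.8 in wild type and 3555, 2225 and 3733 in SMA. Mt1 read 1500, 1269 and 1230 in wild type and 4522, 2460 and 5263 in SMA. In both genes SMA 2 was the lowest SMA array and still lay above all wild-type arrays. Mt2 rose by 1.84 (SE 0.22, adjusted p = 0.0135), whereas Mt1 gave 1.54 (SE 0.29) and did not pass (adjusted p = 0.253). Mt3, the growth inhibitory form made mainly in brain, read 169.7, 105.4 and 155.3 in wild type and 155.7, 105.3 and 164.5 in SMA, with a difference of -0.01 (SE 0.23). Its groups covered the same range.

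All 3 genes lie beside each other on chromosome 8, and their promoters are shown because the metal response element, the site of the zinc sensor Mtf1, differs among them in number. The windows are chr8:94172368-94172667 for Mt2, chr8:94178839-94179138 for Mt1 and chr8:94152357-94152656 for Mt3, all on the plus strand of GRCm38.p6 from RefSeq. Capitals mark TGCGCNC or TGCACNC on either strand.
Mt2: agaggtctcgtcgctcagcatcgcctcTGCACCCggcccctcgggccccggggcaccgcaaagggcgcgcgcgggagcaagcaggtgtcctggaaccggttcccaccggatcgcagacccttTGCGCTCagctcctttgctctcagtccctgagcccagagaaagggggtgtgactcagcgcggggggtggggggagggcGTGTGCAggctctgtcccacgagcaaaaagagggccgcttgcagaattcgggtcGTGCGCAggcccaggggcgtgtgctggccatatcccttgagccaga
Mt1: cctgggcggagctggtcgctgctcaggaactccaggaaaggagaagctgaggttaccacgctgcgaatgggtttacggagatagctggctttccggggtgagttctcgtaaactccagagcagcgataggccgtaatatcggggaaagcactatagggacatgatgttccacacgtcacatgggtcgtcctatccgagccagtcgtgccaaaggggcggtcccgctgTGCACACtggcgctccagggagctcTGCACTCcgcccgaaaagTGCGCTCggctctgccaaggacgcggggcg
Mt3: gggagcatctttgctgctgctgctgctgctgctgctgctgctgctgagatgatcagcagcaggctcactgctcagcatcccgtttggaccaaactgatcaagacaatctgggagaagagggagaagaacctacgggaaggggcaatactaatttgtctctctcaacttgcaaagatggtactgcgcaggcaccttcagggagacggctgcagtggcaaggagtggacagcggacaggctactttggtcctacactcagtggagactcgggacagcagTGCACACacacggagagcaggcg
Mt2 has 4 matches, Mt1 3 and Mt3 1. The element occurs in 28.2% of all genes of the table and in 42% of tested genes, so a single match is common. Mtf1 itself read 53.1, 74.5 and 97.7 in wild type and 115.3, 102.7 and 155.5 in SMA, without overlap (0.64, SE 0.23, adjusted p = 0.719). The zinc importer Slc39a14 read 28.9, 27.4 and 39.3 against 54.9, 41.5 and 76.4, also without overlap (0.60, SE 0.30, adjusted p = 0.846), and 0.36 with overlap at a dimmer probe set. Of 11 tested genes of metal handling, 8 were positive, 4 were higher without overlap (36.4%, background 5.31%) and 0 lower (median 0.25). The iron genes among them gave no array separation, with 0 of 4 apart in either direction.

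Sult1a1 attaches sulfate to phenols and steroids and is among the genes that glucocorticoids induce. Signals were 20.8, 32.3 and 34.3 in wild type and 155.3, 126.4 and 171.7 in SMA. The lowest SMA array was well above the highest wild-type array. Sult1a1 rose by 1.89 (SE 0.18, adjusted p = 0.00345). It was the only tested sulfotransferase of the antioxidant and phase II list. Among the rest of that list, 7 of 12 glutathione enzymes (median 0.02) and 1 of 7 other antioxidants (median -0.16) were positive. The glutathione transferase Gstt1 read 182.1, 180 and 148.3 in wild type and 142.4, 114.5 and 103.9 in SMA (-0.45, SE 0.19, adjusted p = 0.788).

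Cdkn1a encodes p21, which halts the cell cycle and is the classic target of p53. Its dimmer probe set read 13.4, 16.7 and 17.9 in wild type and 135.5, 138.4 and 69.5 in SMA. The brighter probe set read 128.3, 112.6 and 243.2 in wild type and 656.8, 643.6 and 541.3 in SMA. Neither showed overlap, although SMA 3 was the lowest SMA array on both. Cdkn1a rose by 1.98 at the former (SE 0.28, adjusted p = 0.0464) and gave 1.89 at the latter (SE 0.32, adjusted p = 0.135).

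These calls depended on few arrays. The count of 5 was 2 when wild type 1, wild type 2 or SMA 1 was left out, 3 when wild type 3 was, 9 when SMA 2 was and 13 when SMA 3 was. Sult1a1 and the dimmer Hspb1 probe set passed with each single array left out, Cdkn1a did not pass except without SMA 3, and Mt2 and the other Hspb1 probe set passed with some arrays left out. Without SMA 2, Cdkn1a was lost, and Prodh, Tsc22d3, Mt1, the nucleotide reductase gene Rrm2 and a probe set without a name were added. Without SMA 3, the added probe sets included Acta1, Mylpf, Atp2a1 and, named after its values were seen, Ckm of muscle, as well as Xist. Without SMA 1 and SMA 2 no probe set passed with limma (398 higher and 554 lower at an unadjusted p under 0.05), and the smallest adjusted p was 0.063. SMA 3 alone gave 2.54 and 1.62 for Hspb1, 2.07 for Sult1a1, 2.11 for Mt2 and 1.42 for the called Cdkn1a probe set. On SMA 3, a single animal, all 5 differences kept their direction, and muscle markers summed to within the wild-type range. The part of muscle or sex in these calls was not tested.

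**Figure D2:**
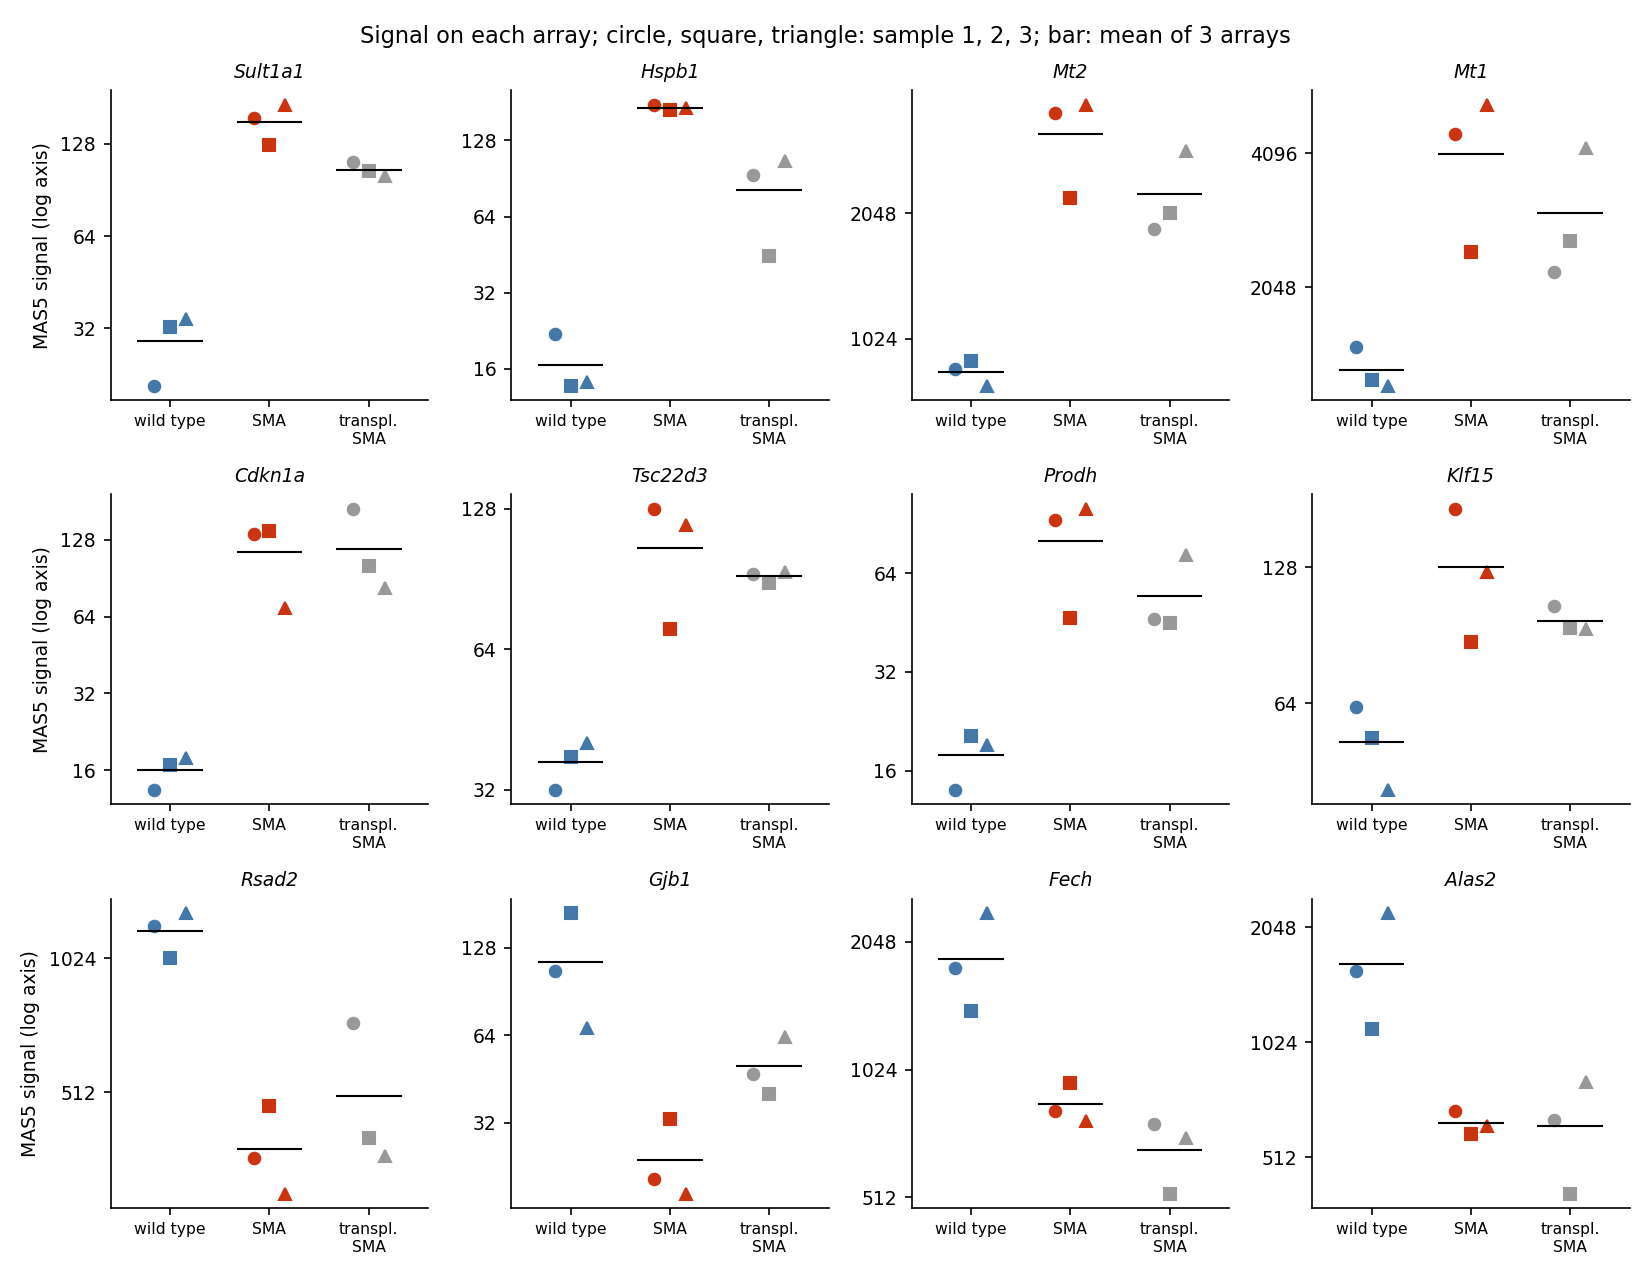
MAS5 signal (log axis, arbitrary units) of 12 genes on each of the 9 arrays, with bars at the mean of 3 arrays. In the SMA column Sult1a1, Hspb1, Mt2 and Cdkn1a lie above all wild-type arrays, with Hspb1 at 168.2 to 177.5 against 13.7 to 21.9, while Rsad2, Gjb1, Fech and Alas2 lie below them, with Rsad2 at 303.8 to 476.7 against 1024 to 1295.

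The next genes by p, taken among those without overlap, did not pass, with limma adjusted p of 0.135 to 0.408. Higher in all 3 SMA mice were several genes known to answer to glucocorticoids or growth arrest. Tsc22d3, which encodes the glucocorticoid-induced leucine zipper, read 32, 37.6 and 40.2 in wild type and 128.1, 70.7 and 118 in SMA (1.18, SE 0.20), though its other probe sets gave 0.47 and 0.39 with overlap. Prodh, the enzyme that starts proline breakdown, read 14, 20.4 and 19.2 against 92.8, 46.8 and 100.7 (1.46). Klf15, a factor that glucocorticoids induce, read 62.8, 53.5 and 41.2 against 172.4, 87.3 and 124.6 (1.04, SE 0.22). In these 3 genes SMA 2 was the lowest SMA array, as it was in both metallothioneins.

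Other genes on the higher side belonged to no single function. Lrrc8a, a subunit of the anion channel that opens when cells swell, read 108.6, 110.3 and 147.1 in wild type and 305, 189.6 and 359.8 in SMA (1.09, SE 0.23). Ccl3, a chemokine that draws in macrophages, read 13.9, 19.1 and 20.1 against 73.5, 58.5 and 35.8 (1.06, SE 0.23). The growth factor Gdf10 read 27.6, 17.5 and 7.6 against 54.5, 71.8 and 45.9 (1.16). Ift27, a GTPase of cilia, varied little within groups, at 72.5, 76.5 and 61.4 against 124.5, 118.9 and 130.7 (0.71, SE 0.16), but its other probe sets gave 0.14 and 0.43.

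On the lower side the leading gene was Rsad2, an antiviral enzyme made after interferon. It read 1208, 1024 and 1295 in wild type and 366.1, 476.7 and 303.8 in SMA (-1.60, SE 0.26), and its 2 dimmer probe sets were lower without overlap too (-0.67 and -1.25). Gjb1, the connexin of myelin, read 106.7, 169.5 and 67.7 against 20.4, 32.8 and 18.2 (-1.66, SE 0.28). Both separated all SMA from all wild-type arrays, by a wide margin in Rsad2. Calr, a calcium-binding chaperone of the endoplasmic reticulum, read 952.9, 1140 and 1070 against 617.9, 626.5 and 692 (-0.69, SE 0.15), and its other probe sets gave -0.61 and -0.73 without overlap. Rras2, a Ras-related GTPase, read 246.6, 244.1 and 240.2 against 119.8, 120 and 164.6 (-0.80, SE 0.18), and -0.45 with overlap at its dimmer probe set.

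For a further 4 of the lower genes, probe sets of one gene disagreed or differed in size. Mkrn1, a ubiquitin ligase abundant in reticulocytes, gave -1.42, -1.10 and -0.82 at 3 probe sets without overlap and -0.13 and -0.10 at its other 2. Cbx5, a heterochromatin protein, gave -0.99, -0.72 and -0.45 without overlap and -0.11 at its brightest. The phosphatidylserine synthase Ptdss2 gave -0.98 at the chosen probe set and -0.33 at the brightest. Czib, a zinc-binding protein, gave -0.74 and -0.13. Which transcript forms these probe sets read was not tested.

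**Figure D3:**
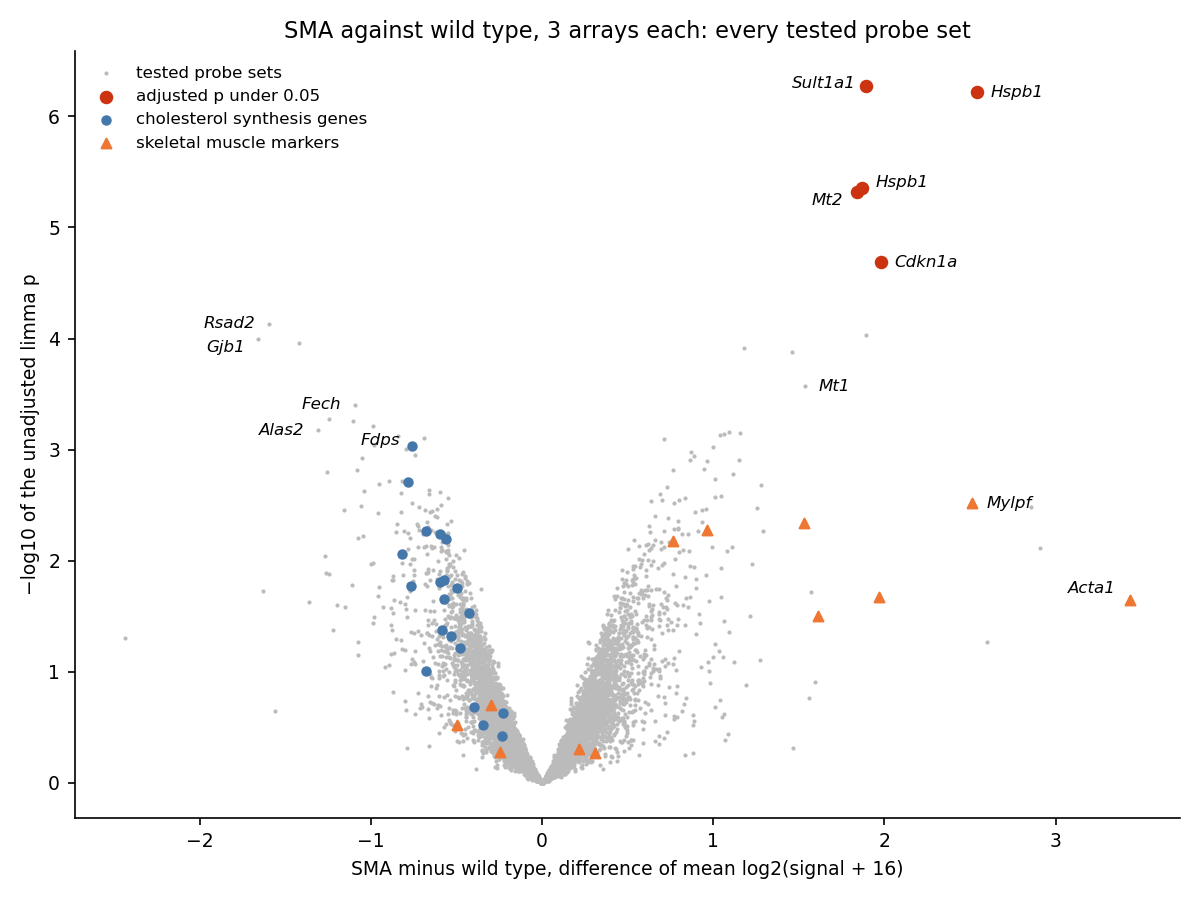
Each point is a tested probe set, with the SMA minus wild-type difference of mean log2(signal + 16) on the x axis and −log10 of the unadjusted limma p on the y axis. The 5 called probe sets (red) lie between 1.84 and 2.54, cholesterol synthesis genes (blue) all lie left of 0 between -0.82 and -0.23, and muscle markers (orange) reach 3.43 with Acta1 at a larger p.

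Cholesterol synthesis genes were all on the negative side. Starting from acetyl-CoA, its enzymes build mevalonate, farnesyl diphosphate, squalene and finally cholesterol, which neurons and glia make in place because plasma cholesterol does not cross into the cord. The mean difference was negative in each of the 20 tested genes, 14 at an unadjusted limma p under 0.05 and 13 without overlap, and 0 passed over all probe sets. That is 70% and 65% of the list, where 3.32% and 6.06% of all tested probe sets were that far lower. The median difference was -0.57, against 0.006 over all tested probe sets.

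Early steps to farnesyl diphosphate gave a median of -0.63 over 6 genes, of which 4 had an unadjusted p under 0.05. Fdps, which makes farnesyl diphosphate, read 340.1, 323.2 and 252.9 in wild type and 182.3, 175.1 and 161.3 in SMA (-0.76, SE 0.17, adjusted p = 0.396). The SMA arrays agreed closely and lay below wild type. Hmgcs1, the enzyme before the rate-limiting step and named after its values were seen, differed least, with 6544, 6115 and 6507 in wild type and 4852, 4545 and 7334 in SMA (-0.23, SE 0.18). There SMA 3 was the highest of the 6 arrays.

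Later steps from squalene to cholesterol gave -0.57 over 11 genes, 9 of them lower without overlap. Squalene epoxidase Sqle read 836.2, 1040 and 863.8 in wild type and 686.4, 582.1 and 441.6 in SMA (-0.68, SE 0.20, adjusted p = 0.568). Nsdhl, which removes a methyl group from the sterol ring, read 888.1, 925.2 and 743.1 against 582.3, 532.3 and 553.7 (-0.60, SE 0.17, adjusted p = 0.568). The sterol demethylase Cyp51 read 466.4, 381.5 and 404.7 against 252.8, 257.9 and 325.4, and its 3 probe sets gave -0.56, -0.60 and -0.84, all without overlap. Lanosterol synthase Lss, named after its values were seen, gave the largest difference of the list (-0.82, SE 0.26), from 883, 1172 and 576.6 to 526.5, 419.1 and 470.6. In each of these genes even the highest SMA array read below the lowest wild-type array.

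Regulators of the pathway separated less. The sterol sensor partner Scap and the master factor Srebf2 overlapped between groups, at -0.34 (SE 0.31) and -0.23 (SE 0.25); both were named after their values were seen. The sterol carrier Stard4, itself a target of Srebf2, read 154, 121.9 and 111.8 in wild type and 73.4, 51.3 and 81.5 in SMA (-0.78, SE 0.19, adjusted p = 0.502). It was the 1 of 3 tested genes of this role without overlap.

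The cholesterol list was low on each SMA array. Its median against the wild-type mean was 0.07, 0.21 and -0.23 on wild type 1, 2 and 3, and -0.52, -0.62 and -0.58 on SMA 1, 2 and 3. Of the 20 genes, 15, 18 and 17 read below all wild-type arrays on SMA 1, 2 and 3, counts without a background here. With SMA 3 alone the median was -0.58, 1 gene was positive and 9 had an unadjusted p under 0.05. Leaving out single arrays gave medians of -0.69 to -0.44. Fatty acid synthesis, the neighbouring lipid pathway, was less even: 11 of 12 tested genes were negative (median -0.21), but 1 was lower at an unadjusted p under 0.05 and 6 were positive on SMA 3 alone. The elongase Elovl6 read 1022, 1128 and 931.5 in wild type and 498.5, 639.1 and 775.1 in SMA (-0.69, SE 0.21, adjusted p = 0.599). The factor Srebf1, which drives fatty acid genes, read 374.9, 301.3 and 257.1 against 388.7, 398.9 and 419.5, higher without overlap (0.37, SE 0.17).

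**Figure D4:**
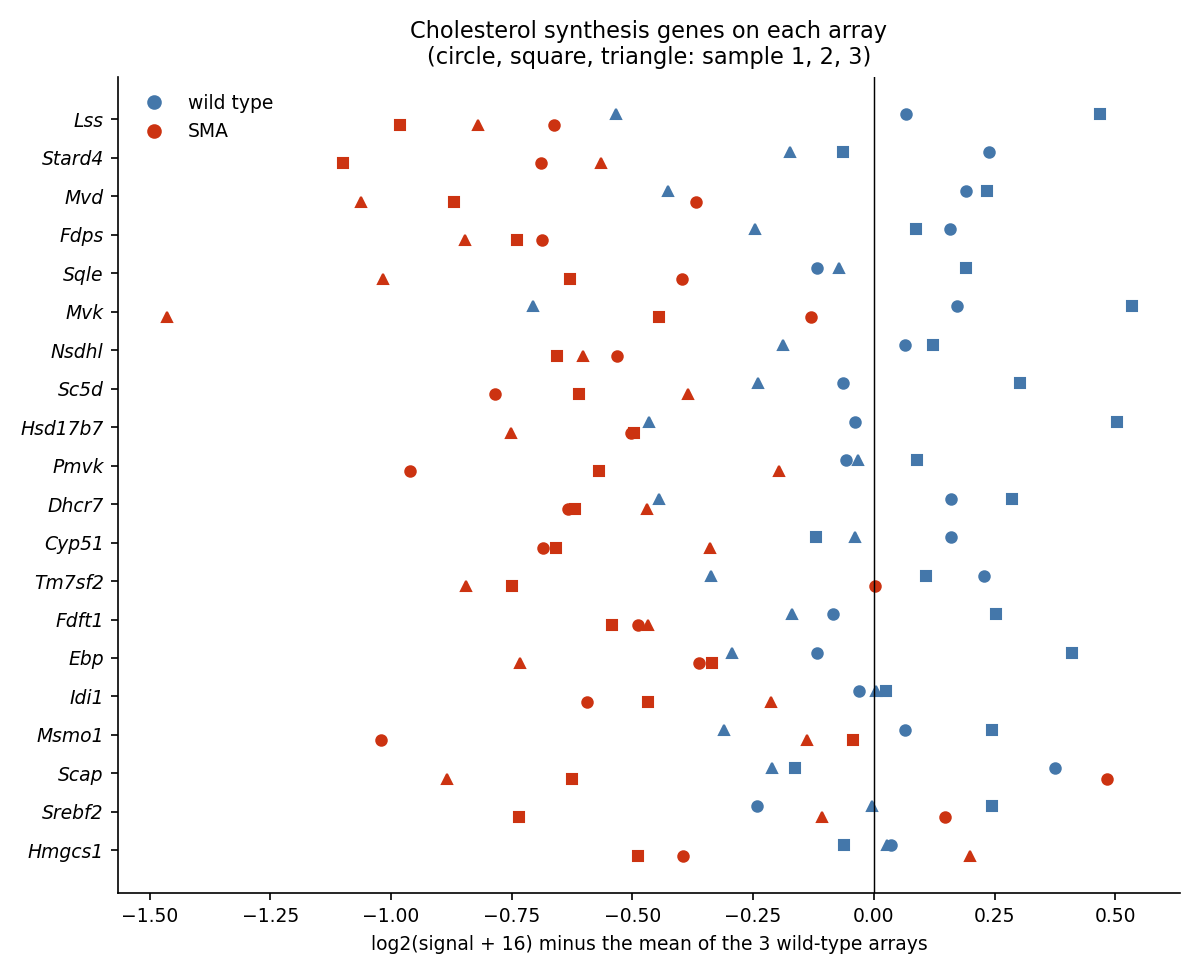
log2(signal + 16) minus the wild-type mean (x axis) for the 20 tested cholesterol synthesis genes on each wild-type (blue) and SMA (red) array, ordered by difference. Points of all 3 SMA arrays lie left of all wild-type points for 13 of the 20 genes, and the overlap grows toward Hmgcs1 and Srebf2 at the bottom.

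Promoters of 2 of these genes are shown because sterol genes commonly carry a CCAAT box for the factor NF-Y beside a sterol regulatory element. Nsdhl is shown as a gene with several matches, and Lss as the one with the largest difference of the list. The windows are chrX:72918271-72918570 and chr10:76531355-76531654, both on the plus strand of GRCm38.p6 from RefSeq. Capitals mark CCAAT on either strand.
Nsdhl: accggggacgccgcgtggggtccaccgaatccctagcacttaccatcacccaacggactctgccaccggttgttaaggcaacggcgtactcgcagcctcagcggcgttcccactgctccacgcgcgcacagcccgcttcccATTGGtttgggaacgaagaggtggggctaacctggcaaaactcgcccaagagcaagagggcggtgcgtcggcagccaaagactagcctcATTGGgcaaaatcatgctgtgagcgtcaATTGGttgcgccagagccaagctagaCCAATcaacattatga
Lss: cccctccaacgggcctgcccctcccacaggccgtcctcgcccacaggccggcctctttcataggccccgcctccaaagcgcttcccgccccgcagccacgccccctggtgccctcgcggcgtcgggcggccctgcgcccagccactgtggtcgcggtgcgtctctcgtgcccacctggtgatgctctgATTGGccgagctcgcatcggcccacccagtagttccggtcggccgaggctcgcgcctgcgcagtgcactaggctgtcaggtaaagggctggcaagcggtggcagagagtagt
Nsdhl has 4 matches and Lss 1. Of the 16 tested cholesterol genes found in the table, 15 (93.8%) had the box, against 43.2% of 5928 tested genes and 41.1% of all genes. The sterol element in the form TCACNCCAC was found in 1 of the 16, Hmgcs1, and in 1.44% of all genes, and it shared no base with a CCAAT match in the 20 windows of these genes.

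Genes induced by glucocorticoids were all on the positive side. These hormones of the adrenal cortex act through a nuclear receptor and raise a common set of regulators in most tissues. All 13 tested genes were positive, 5 at an unadjusted p under 0.05 (38.5%, background 2.71%) and 7 without overlap (53.8%, background 5.31%), with a median of 0.56. Mt2 and Sult1a1, called above, belong to this list, which was chosen with earlier results of these data known. Its shares are therefore no independent test. Fkbp5, a co-chaperone of the receptor, read 69.7, 59.9 and 66.5 in wild type and 248.4, 113.9 and 121.7 in SMA (1.05, SE 0.27, adjusted p = 0.534). The clock gene Per1 read 43.6, 29.1 and 39.4 against 64.4, 95.8 and 82.8 (0.86, SE 0.27, adjusted p = 0.599). The phosphatase Dusp1 read 110.4, 114.2 and 78.1 against 172.5, 327 and 139.7 (0.90, SE 0.31, adjusted p = 0.693). Each was higher in all SMA mice, but the highest array was SMA 1 for Fkbp5 and SMA 2 for the other two. The list's medians were 0.41, 0.61 and 0.90 on SMA 1, 2 and 3, and SMA 3 alone gave 12 of 13 positive. The short site AGAACA or TGTTCT, which reads the same element on either strand, lay in 3 of 12 list promoters (25%), in 14.6% of 5928 tested genes and in 21.3% of all genes. Per1 also belongs to the core clock, of which all 4 tested genes were positive (median 0.26, Per1 alone without overlap), while 3 of 8 clock output genes were.

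Targets of p53 and growth arrest genes gave 13 of 15 positive and a median of 0.28. Of the 15, 4 were higher at an unadjusted limma p under 0.05 (26.7%, background 2.71%). Without overlap, 6 were higher (40%, background 5.31%) and 0 lower. Besides Cdkn1a, the growth arrest genes Gadd45g and Gadd45b separated both groups. Gadd45g read 32.2, 36.5 and 40.4 in wild type and 75.7, 59.7 and 110.2 in SMA (0.87, SE 0.20, adjusted p = 0.408). Gadd45b read 20.9, 32.5 and 7.5 against 52.6, 38.5 and 58.9 (0.91, SE 0.26, adjusted p = 0.568), but its dimmer probe set gave 0.37 with overlap. Gadd45a, the form most tied to p53, was too dim to test, at 10.7, 19.3 and 22.8 against 10.5, 13.2 and 10.3. Trp53inp1, a p53 cofactor in apoptosis and autophagy, read 119, 158.9 and 184.4 against 259.7, 291.3 and 229.4 (0.71, SE 0.21, adjusted p = 0.568). Feedback and repair targets gave a smaller median, 0.10 over 6 genes. On SMA 1, 2 and 3 the list median was 0.30, 0.31 and 0.23, and it was 0.23 for SMA 3 alone.

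Genes of the immediate early and injury response, some of them switched on within minutes of activity or damage, were positive in 19 of 20. Their median was 0.28. Without overlap, 2 were higher (10%, background 5.31%) and 0 lower. The 2 were Gadd45b and Dusp1, which other lists hold as well. None of the 12 tested transcription factors of the list separated the groups. Nr4a1 read 30.9, 44.4 and 65.7 in wild type and 87.1, 61.2 and 68.6 in SMA (0.51, SE 0.35). With SMA 3 alone 14 of 20 were positive.

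Of 19 tested heat shock genes, 8 were positive, Hspb1 among them, and 5 were lower without overlap (26.3%, background 6.06%), with a median of -0.06. Small heat shock proteins, Hspb1 included, were positive in 3 of 4. Positive differences were found in 2 of 7 genes of the Hsp70 and Hsp110 families and in 3 of 8 of the Hsp90, Hsp40 and Hsp60 families. The J-domain protein Dnajb2, enriched in neurons, read 336.7, 336.9 and 385.5 in wild type and 229.5, 215.9 and 261.1 in SMA (-0.55, SE 0.16, adjusted p = 0.568). Hsph1, a partner of Hsp70, read 410, 364.2 and 390.3 against 323.2, 272.1 and 272.2 (-0.41, SE 0.17, adjusted p = 0.807). Both were lower in every SMA mouse, though a dimmer probe set of Hsph1 gave 0.01 with overlap. The small heat shock protein Hspb8 overlapped, at 21.6, 45.7 and 46.9 against 45.2, 44.7 and 110.4 (0.56, SE 0.33). In the endoplasmic reticulum, 13 of 14 tested chaperones were negative (median -0.21). Calr was the 1 lower without overlap (7.14%, background 6.06%). The chaperone Hspa5, raised by the unfolded protein response, read 1035, 1158 and 983.1 against 1139, 1215 and 534.4, so that SMA 3 alone was low (-0.22, SE 0.27), and without SMA 3 it gave 0.15. The stress factor Ddit3 read 75.8, 84.4 and 60.4 against 36.9, 61.7 and 55.1 (-0.42, SE 0.23).

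Erythroid transcripts were the group with the largest negative median, -0.92 over 6 tested genes. All 6 were negative, and 4 were lower both at an unadjusted limma p under 0.05 and without overlap (66.7%, background 3.32% and 6.06%). Alas2, the first enzyme of heme synthesis in red cells, read 1574, 1107 and 2238 in wild type and 677.7, 587.2 and 616.5 in SMA (-1.31, SE 0.28, adjusted p = 0.375). Fech, which inserts the iron, read 1781, 1407 and 2403 against 818.4, 952.9 and 773.4 (-1.09, SE 0.22, adjusted p = 0.343). Bpgm, the red cell enzyme of 2,3-bisphosphoglycerate, read 1387, 1422 and 1107 against 669.6, 849.8 and 839.4 (-0.72, SE 0.19, adjusted p = 0.534). All SMA mice read below all wild-type mice in each at these probe sets. Dimmer tested probe sets gave -0.88 without overlap and -0.34 with overlap for Fech, and -0.76 and -0.33 likewise for Bpgm. The list summed to 4943 to 6737 in wild type and 2753 to 3762 in SMA over 11 genes with a probe set, and its median was -1.27 on SMA 3 alone. Brain cells also express some of these genes, and how much came from blood in the tissue was not tested.

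Interferon response and MHC class I genes differed unevenly. Of 13 tested, 8 were negative (median -0.25), and 4 were lower at an unadjusted limma p under 0.05 (30.8%, background 3.32%). Without overlap, 2 were lower (15.4%, background 6.06%), Rsad2 and Igtp. The GTPase Igtp read 84.1, 84.9 and 141.7 in wild type and 52.5, 81.1 and 57.6 in SMA (-0.57, SE 0.24, adjusted p = 0.807). H2-K1, a heavy chain that presents peptides, read 289.9, 691.5 and 1068 against 307.5, 272.8 and 165.8 (-1.26, SE 0.43, adjusted p = 0.686). Wild type 1 there lay within the SMA range. H2-D1 read 291.8, 1165 and 1414 against 466, 393 and 191.2, with the same exception, and its probes can take up H2-K1 as the genes are near-identical. List medians were -0.36, 0.04 and 0.43 on the wild-type arrays and -0.21, -0.27 and -0.23 on the SMA arrays, so that wild-type mice spread more than the groups differed.

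Complement and chemokine genes were positive in 10 of 12, with a median of 0.44 and 2 higher without overlap (16.7%, background 5.31%). Those were Ccl3 and Ccl4, the latter (named after its values were seen) at 19.4, 27.3 and 27.1 in wild type and 53.4, 27.9 and 34.6 in SMA (0.41, SE 0.22). C1qb, a chain of the first complement component made by microglia, read 308.9, 693.3 and 976.5 against 1095, 854 and 1040 (0.72, SE 0.38, adjusted p = 0.867). Wild type 1 and wild type 2 lay below all SMA arrays at that probe set, and wild type 3 did not. Dimmer probe sets of C1qb gave 0.48 and 0.53 with overlap, and at both SMA 1 read below wild type 2. Microglial markers as a whole were positive in 17 of 23 with 0 without overlap and a median of 0.21. Their sums were 8962, 13790 and 19060 in wild type and 15140 to 16130 in SMA, inside the wild-type range. The part of microglia in the complement values was not tested.

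Cytosolic ribosomal proteins were slightly higher on average. Of 38 tested, 35 were positive, 5 at an unadjusted p under 0.05 (13.2%) and 8 without overlap (21.1%), with a median of 0.17. Small and large subunits gave the same median to 2 decimals. Rps25 read 55.7, 58.6 and 74.6 in wild type and 109.5, 174 and 129.5 in SMA (0.95, SE 0.23, adjusted p = 0.459). Rpl41 read 3030, 2766 and 3063 against 5788, 4893 and 4487 (0.77, SE 0.18, adjusted p = 0.459). Both were higher in all SMA mice at these probe sets, but the other 2 tested for Rpl41 overlapped (0.19 and 0.00). The list lay at 0.20, 0.16 and 0.19 on SMA 1, 2 and 3 and at -0.05, -0.05 and 0.10 in wild type. Ribosomal protein genes have many processed copies, and whether probe sets took these up was not tested.

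The machinery closest to the disease held no called gene. Of 21 tested genes of the SMN complex and the snRNPs, 13 were positive (median 0.13). Without overlap, 3 were higher (14.3%, background 5.31%) and 0 lower. Snrpa1, a protein of the U2 particle, read 122.1, 138.3 and 125.9 in wild type and 191, 294.9 and 250.4 in SMA (0.83, SE 0.22, adjusted p = 0.534). Snrnp70 of the U1 particle read 112.6, 164 and 160.6 against 258.6, 185.5 and 179.8 (0.47, SE 0.22, adjusted p = 0.837). Sm proteins, the cargo of SMN, and LSm proteins together gave 4 positive and 4 negative of 8, between -0.13 and 0.19, with 0 without overlap. On SMA 3 alone the list median was -0.10. Of 30 splicing regulators and RNA-binding proteins, 14 were positive, and 2 were higher and 2 lower without overlap (6.67% each, background 5.31% and 6.06%). Hnrnpc read 2121, 1953 and 2167 against 1850, 1424 and 1396 (-0.43, SE 0.15, adjusted p = 0.707), lower in every SMA mouse.

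Neuronal structure and transmission showed few differences. Of 36 tested genes of neurofilaments, cytoskeleton and axonal transport, 18 were positive and 0 had an unadjusted p under 0.05. The neurofilament light chain Nefl read 980.8, 965.6 and 856.6 in wild type and 962.9, 559.1 and 572.9 in SMA (-0.45, SE 0.28). Nefm read 188.3, 200.1 and 156.3 against 168.1, 146.2 and 91.4 (-0.42, SE 0.42), and Nefh 77.2, 97.9 and 156.2 against 73, 54.1 and 87.1 (-0.50, SE 0.40). All 3 chains had a negative mean difference, and in each at least 1 SMA array lay within the wild-type range. Mapt, the microtubule protein tau, read 243.2, 234.2 and 244.9 against 340.4, 291 and 284.2, higher without overlap (0.32, SE 0.17, adjusted p = 0.867). It was the 1 of 36 without overlap (2.78%, background 5.31%). Its dimmer probe sets gave 0.56 without overlap and 0.23 with overlap. Synaptic vesicle genes had 5 of 15 positive with 0 without overlap. Of 12 channels and receptors, Glrb was the 1 without overlap (8.33% lower, background 6.06%). This beta subunit of the glycine receptor read 94.4, 96 and 118.3 against 34.5, 66.5 and 86.8 (-0.65, SE 0.32).

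Motor neuron markers bright enough to test had a median of 0.03 over 8 genes. The acetylcholinesterase gene Ache read 32.9, 40.2 and 55.2 in wild type and 29.5, 28.4 and 24.5 in SMA, without overlap (-0.42, SE 0.27). Isl2 read 43, 59.6 and 26.4 against 47.8, 34.7 and 58 (0.11, SE 0.27), with full overlap. At these signals a loss of motor neuron transcripts could not be read from most of the markers. Interneuron markers gave 6 of 9 positive (median 0.06) with 0 without overlap. On SMA 3 alone 2 of 9 were positive, with a median of -0.46, and 6 read below all wild-type arrays, a count without a background here.

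Energy and protein turnover genes differed little. Oxidative phosphorylation genes were negative in 34 of 47 (median -0.08), with 1 higher (2.13%) and 2 lower (4.26%) without overlap, both shares under the background. The cytochrome Cyc1 read 1728, 1590 and 1595 in wild type and 1618, 1064 and 952.2 in SMA (-0.47, SE 0.19, adjusted p = 0.793). Of 15 glycolysis genes 9 were negative, and the enzyme Tpi1 read 1143, 1189 and 1404 against 970.1, 875.4 and 841.1 (-0.47, SE 0.16, adjusted p = 0.686), without overlap. Proteasome and ubiquitin genes were negative in 27 of 34 (median -0.09), with 3 lower without overlap (8.82%, background 6.06%). Among these was Psma5 at 1012, 885.4 and 941.6 against 585.1, 708.5 and 848.6 (-0.41, and -0.12 with overlap at its dimmer probe set). Lysosome and autophagy genes were positive in 16 of 25 (median 0.10), and progranulin Grn read 1216, 1439 and 1838 against 1956, 2123 and 1984 (0.45, SE 0.21, adjusted p = 0.842).

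Cell death genes went both ways, with 9 of 16 positive. Without overlap, 1 was higher (6.25%, background 5.31%) and 3 were lower (18.8%, background 6.06%). The 3 lower ones were Aifm1, the caspase inhibitor Birc2 and Bcl2l1. Bcl2l1, which encodes the survival protein Bcl-xL, read 178, 195.3 and 224.4 in wild type and 165.9, 136.6 and 148 in SMA (-0.37, SE 0.16, adjusted p = 0.820). Birc2 read 312, 298.9 and 316.6 against 155.2, 155.3 and 297.6 (-0.63, SE 0.25), so that SMA 3 was near wild type.

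The insulin-like growth factor system held large differences in both directions. Igfbp3, a binding protein that p53 can induce, read 16.8, 8.2 and 17.9 in wild type and 31.8, 46.5 and 112.4 in SMA (1.28, SE 0.32, adjusted p = 0.515). Igf2 read 83.8, 137.8 and 299.7 against 591.2, 651.6 and 299.3 (1.57, SE 0.57, adjusted p = 0.724). Igfbp5 read 82.8, 150.5 and 134.1 against 266.4, 403.5 and 126.8 (0.93, SE 0.39, adjusted p = 0.807). For Igf2 and Igfbp5, SMA 3 lay within the wild-type range, and SMA 1 and SMA 2, the arrays with muscle transcripts, were high. The part of muscle in these values was not tested. Igfbp4 was lower without overlap, at 600.4, 694.1 and 956.7 against 329.3, 580.9 and 533.9 (-0.64, SE 0.24, adjusted p = 0.744). Its other 4 probe sets gave -0.63 to 0.00.

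Glial markers followed single arrays more than groups. Oligodendrocyte and myelin markers were negative in 21 of 22 with a median of -0.40, but the list lay at -0.42 and -0.48 on SMA 1 and SMA 2 and at 0.11 on SMA 3. Their summed signal was 41110 to 47430 in wild type and 33980, 31270 and 53220 on SMA 1, 2 and 3. The cholesterol list lay at -0.52, -0.62 and -0.58 on SMA 1, 2 and 3, and the part of oligodendrocytes in it was not tested. Gjb1 was low on all 3, and the sulfotransferase Gal3st1 of myelin lipids read 420.1, 479.9 and 338.1 against 305.5, 247.6 and 264.7 (-0.56, SE 0.21, adjusted p = 0.732). Myelin basic protein Mbp read 9982, 9531 and 11110 against 10934, 7832 and 12112, with a difference of -0.01 (SE 0.17).

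Astrocyte markers were positive in 12 of 20 (median 0.13) and summed to 19350 to 23610 in wild type, 20750 and 18550 on SMA 1 and SMA 2 and 30910 on SMA 3. Gfap, the filament of reactive astrocytes, read 469.1, 445.6 and 1007 in wild type and 399.6, 406.2 and 2206 in SMA, so that SMA 3 alone was high and wild type 3 came next. Its difference was 0.26 (SE 0.59) and became -0.55 without SMA 3. Without overlap, 2 of the 20 were higher (10%, background 5.31%) and 1 was lower (5%, background 6.06%). The receptor Gpr37l1 read 1376, 1139 and 822 against 665, 366.4 and 565.8 (-1.05, SE 0.24, adjusted p = 0.408), and angiotensinogen Agt read 700.6, 687 and 385.6 against 1586, 966.1 and 997.6 (0.99, SE 0.30, adjusted p = 0.599). The connexin Gjb6 read 243.9, 141.9 and 187.3 against 316.5, 251.6 and 517.3 (0.84, SE 0.35, adjusted p = 0.807).

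Vessel, meningeal and nerve sheath markers were highest on wild type 3 or SMA 3. Endothelial and pericyte markers had medians of -0.05, -0.46 and 0.45 in wild type and -0.52, -0.37 and 0.78 in SMA. The Schwann cell list of 5 genes summed to 3641, 4707 and 9373 in wild type and 2277, 3778 and 11330 in SMA. The arrays of each group spread further in both lists than the group medians differed. Meningeal and fibroblast markers spread likewise, from -0.69 to 0.90 over the wild-type arrays, and 0 of 16 tested separated the groups. Creatine synthesis and kinase genes gave 4 of 5 negative, with Gamt at 165.1, 202.5 and 163 in wild type and 80.8, 76.7 and 174.6 in SMA, again with SMA 3 at the wild-type level.

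Medians on SMA 3 alone are given here for the lists not yet described that way. Metal handling gave 0.67 in place of 0.25, with 10 of 11 positive, and complement and chemokines 0.50 in place of 0.44. Both were thus on the positive side with and without the arrays that carried muscle transcripts. Proteasome and ubiquitin gave -0.21, with 20 of 34 genes below all wild-type arrays and 0 above. For such a count on SMA 3, the share of all tested probe sets was not computed. Synaptic vesicle genes gave -0.26, endoplasmic reticulum stress genes -0.24 and heat shock genes -0.17. Glycolysis gave -0.18, the insulin-like growth factor system -0.20 and oxidative phosphorylation -0.03. All these lists kept the sign of the main median. So did splicing regulators (-0.05), cytoskeletal genes (-0.03), immediate early genes (0.30), ribosomal proteins (0.19), lysosome and autophagy (0.09), cell death (0.16), the clock (0.11), motor neuron markers (0.24), astrocytes (0.48), microglia (0.19), meningeal cells (0.46), Schwann cells (1.48) and the 12 tested skeletal muscle markers (0.29, in place of 0.86). The sign turned for antioxidant enzymes (0.04), fatty acid synthesis (0.02), channels and receptors (-0.06), creatine genes (0.04), oligodendrocyte precursor markers (0.20 to -0.02) and endothelial markers (0.78), as it did for the snRNP, oligodendrocyte and interneuron lists above.

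**Figure D5:**
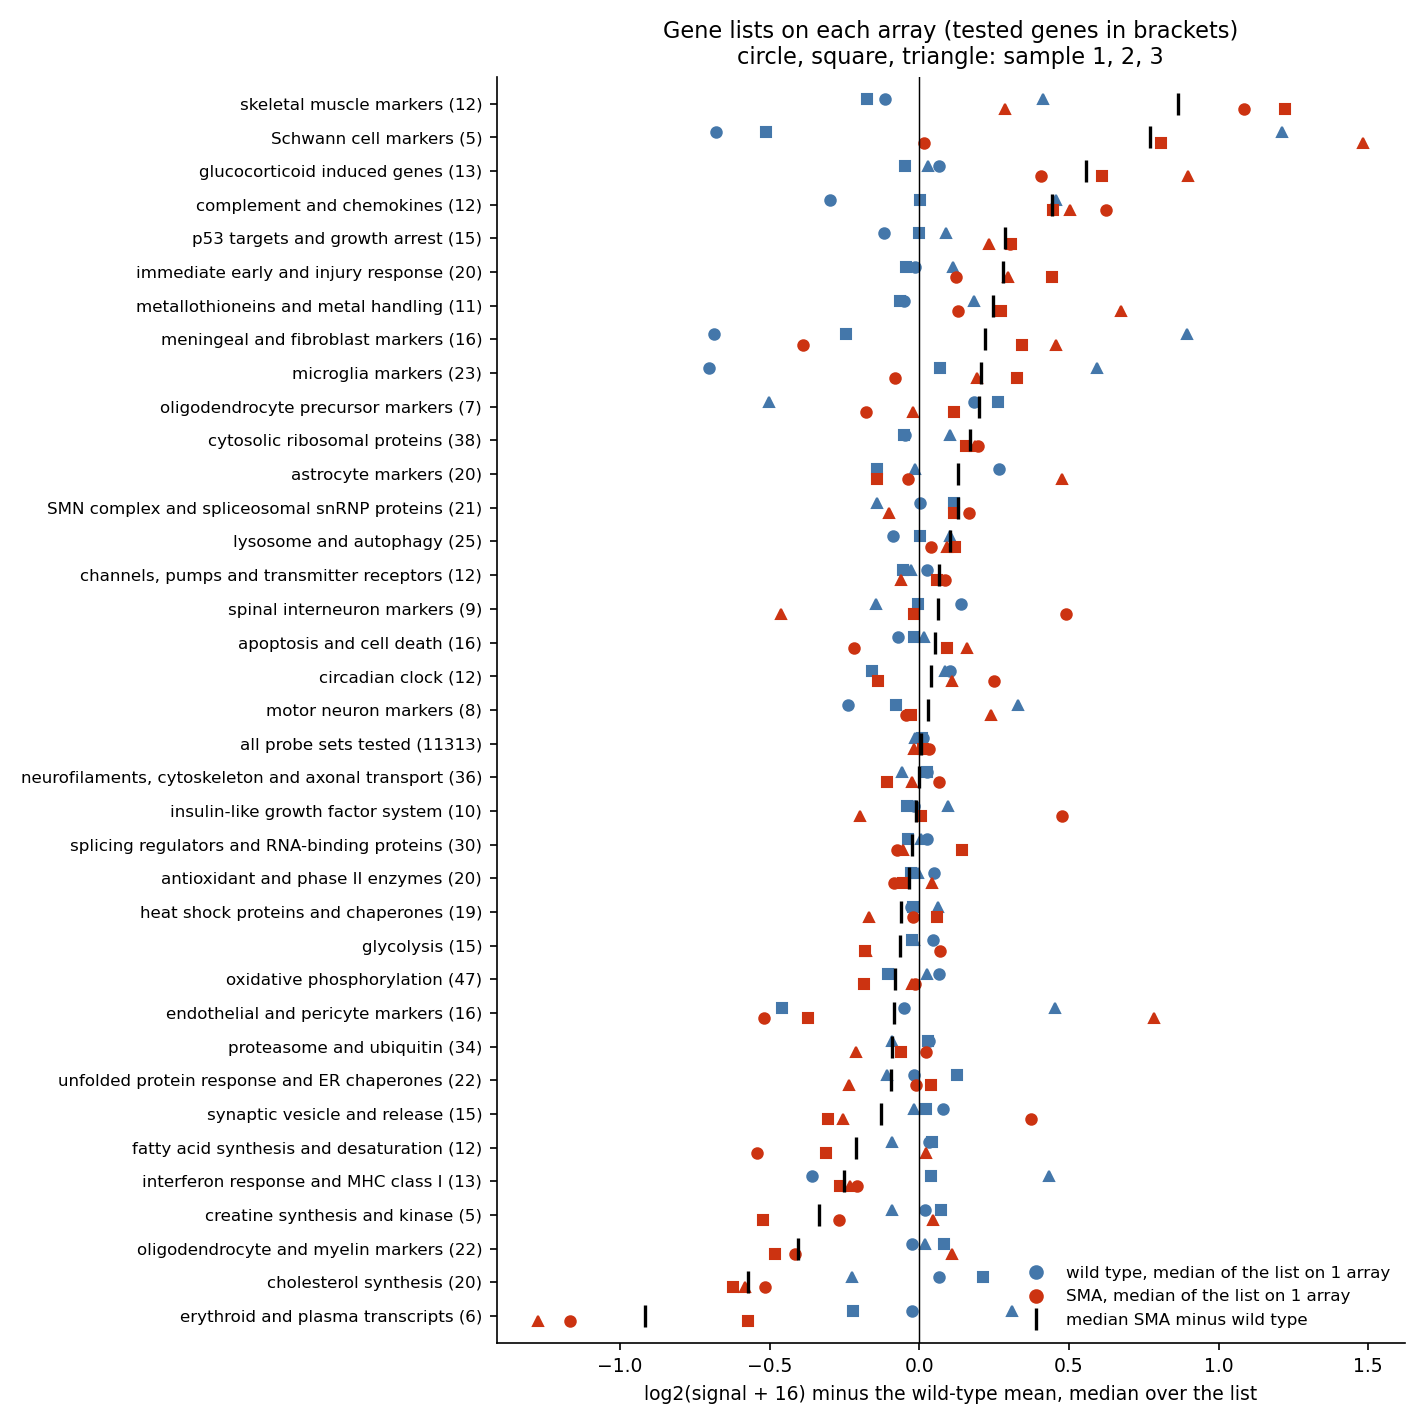
For each gene list, the median over its tested genes of log2(signal + 16) minus the wild-type mean (x axis) on each wild-type (blue) and SMA (red) array, with a black bar at the median SMA minus wild-type difference and the number of tested genes in brackets. All 3 SMA arrays lie apart from wild type on the same side for cholesterol synthesis (-0.52 to -0.62), erythroid transcripts, glucocorticoid induced genes (0.41 to 0.90), p53 targets and ribosomal proteins, while oligodendrocyte, Schwann and endothelial lists spread by array.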

How the data were processed

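Cells of 9 mice, 3 a group, were read on Affymetrix mouse arrays after 2 rounds of RNA amplification, as the labels' protocols say. What the authors deposited is 1 linear intensity (MAS5 signal) for every probe set, per the submitters' processing notes, which name no MAS5 version. Of 22690 probe sets, 64 controls were left out. GEO's platform annotation named 1 gene for 20380, several for 691, and 1555 of the rest are unnamed here. From the deposited signals, log2(signal + 16) was computed, and 11313 probe sets above the median of means over 9 arrays were fitted with lmFit and eBayes (trend) in limma 3.58.1 under R 4.3.3, with a mean per group, SMA minus wild type as contrast and Benjamini-Hochberg adjustment. The script was checked on simulated data. A gene in a list is read by its brightest probe set.

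The genes named are those past the threshold, the 12 higher and 12 lower with the smallest p among probe sets without overlap, up to 4 members a list with the smallest p, and genes fixed by name for checks. The members and lists were chosen with earlier results of these data known. Replicate numbers were not used as pairs in the main fit. Deviations from the group mean correlated between same-numbered arrays at 0.298, 0.0291 and 0.453 for numbers 1, 2 and 3. Wild type 3 and SMA 3 were each other's best match. What these 2 arrays share was not tested. Arrays give no counts, so the number of arrays limits the precision. Promoters came from RefSeq's table for GRCm38.p6 and were searched on both strands.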

Additional observations from a re-analysis of the deposited data

How the results depend on the processing

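The 5 calls stayed 5 under quantile normalisation, centred medians, a pseudocount of 1 and no trend, and were 4 with a pseudocount of 64, no filter or only the 6 arrays compared. Among the brighter 25% of probe sets 2 passed, without SMA 1 and SMA 2 0 passed, and leaving out single arrays gave 2 to 13. The fit with replicate number as a block gave the same 5 calls, with 397 higher and 472 lower at an unadjusted limma p under 0.05. Centred medians gave 203 higher and 554 lower against 307 and 376.

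Of 1497 values for 96 named probe sets, 1461 kept direction and side of the threshold, 20 were weaker, 7 stronger and 9 reversed. The reversed ones were Acta1 on SMA 3 alone (-0.76), Mbp under quantile normalisation (0.01) and on SMA 3 alone (0.25), and 4 genes when single arrays were left out: Gfap from -0.55 to 0.66, Hspa5 from -0.43 to 0.15, Isl2 from -0.11 to 0.31 and Mbp from -0.14 to 0.18. In Isl2 this also included -0.01 with SMA 3 left out, and in Mbp 0.05 with wild type 3 left out. The cause was not tested. Of 36 lists, 16 kept the sign of their median in every setting run.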

Other observations

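Outside the lists and the rule for named genes, some genes separated all SMA from all wild-type arrays, chosen here after their values were seen, with limma adjusted p of 0.396 to 0.534. Hif3a, a hypoxia-inducible factor subunit, read 43.6, 48.9 and 67.9 in wild type and 152, 112.9 and 103.2 in SMA. Foxo3, a factor of stress resistance and atrophy, read 42.1, 48.9 and 30.4 against 78.7, 86.8 and 92.7 (a difference of 0.87). The kinase Jak2, which relays cytokine signals, read 102.5, 123.4 and 122 against 207.1, 165.2 and 220.9 (0.69). All 3 were higher in every SMA mouse, SMA 3 included.

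On the lower side, the transmembrane protein Tmeff2 read 1125, 1336 and 816.4 in wild type and 518.4, 574.5 and 546.9 in SMA (-0.95). The adducin Add3 of the membrane skeleton read 242.9, 274.7 and 236.4 against 152.6, 161.4 and 145.1 (-0.66). The 14-3-3 protein gene Ywhab read 1878, 1895 and 1490 against 1230, 1137 and 1191 (-0.55). In these genes the SMA arrays lay close together, and no SMA array reached the wild-type range.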
